A study of Homo sapiens with 6 samples.

Results

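The genes described here are 10 human regulators of pre-mRNA splicing: the kinases CLK1, CLK2, CLK3 and CLK4, the L cyclins CCNL1 and CCNL2, the RNA-binding proteins RBM5, RBM6 and RBM39, and NKTR, an RS-rich cyclophilin. They are 10 of the 60671 annotated genes in the expression matrix, and all 10 are among the 13861 genes that reached 1 TPM in at least 3 samples. TPM is the share of a gene among all transcripts, corrected for length and scaled to a total of 1000000 in each sample. The genes were listed by name as splicing regulators known for retained introns, and they were selected on the core and margin TPM of these same samples, which had been seen when the list was drawn up. Their differences between tumor core (TC) and tumor margin (TM) are therefore given as descriptions, without a test.

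The study measured RNA in xenografts of the MDA-MB-231 cell line, grown from a human breast cancer of the triple-negative kind, to compare gene regulation between the core and the margin of a tumor. Wild-type cells in Matrigel had been injected orthotopically into the fourth mammary fat pads of female NOD/SCID/IL2Rγ-null (NSG) mice aged 6 to 8 weeks, which lack T, B and natural killer cells but keep fibroblasts, vessels, muscle and macrophages of their own. The 3 TC and 3 TM samples shared cell line, genotype, host strain and the absence of any drug, and differed in the labels by region alone. The study describes 3 mice per group, and the labels do not say whether a core and a margin came from the same mouse.

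CLK kinases are nuclear kinases that phosphorylate the serine- and arginine-rich (RS) domains of SR proteins, which releases these splicing factors from nuclear speckles and changes which exons and introns they help to define. Several genes of this circuit, the CLKs among them, control their own output by keeping introns in a share of their transcripts. Such transcripts are polyadenylated but stay in the nucleus, and they can be spliced and exported later when kinase activity or stress changes.

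The matrix gives 1 TPM value per gene and sample, so a change in the level of a gene and a change in the splicing of its transcripts cannot be told apart here. In the GENCODE release 29 annotation the 10 genes carry 220 transcripts, of which 97 are of the class retained_intron, 56 are protein-coding and 40 are candidates for nonsense-mediated decay. The median was 8.5 retained_intron transcripts per gene, against 1 over the 11900 tested protein-coding genes. CCNL1, RBM5 and RBM39 have 16 each, a number that 0.345% of those genes reach. NKTR has 13, CCNL2 has 9, CLK1 and CLK3 have 8 each, CLK4 has 7 and RBM6 has 4. CLK2 has none and is the exception to the description by which the genes were listed.

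All 10 genes had a lower mean in the core than in the margin, where 67.0% of the tested genes were lower. In 7 of the 10 the core and margin values did not overlap with the core lower, which was so for 18.9% of the tested genes. Because the genes were chosen with this contrast in view, nothing is read from these counts. The summed level of the 10 genes was 375.8, 281.8 and 290.3 TPM in the cores and 496.7, 502.1 and 503.0 TPM in the margins. In this sum the margins lay close together, at 500.6 ± 3.43 TPM (SD, n = 3), and the cores spread more widely below them, at 316.0 ± 52.0 TPM (SD, n = 3). Single genes varied more among the margins, with coefficients of variation from 3.94% for RBM6 to 38.6% for CLK2. Opposite moves cancelled in part, as margin replicate 3 was the highest margin for RBM5 and the lowest for RBM39.

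The differences, TC minus TM in log2(TPM + 1), ran from −1.21 for NKTR to −0.24 for CLK4, with a median of −0.63. The share of tested genes with a lower difference ran from 1.61% for NKTR to 37.2% for CLK4. As the genes were chosen on this contrast, nothing is read from these shares. The median over all tested genes was −0.14 with the deposited TPM and 0.02 after rescaling by median-of-ratios factors. Each of the 10 lay below the all-gene median on both scales, and on the rescaled values their median was −0.45. In bulk tissue, fewer cells of a type and less RNA per cell cannot be told apart.

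**Figure D1:**
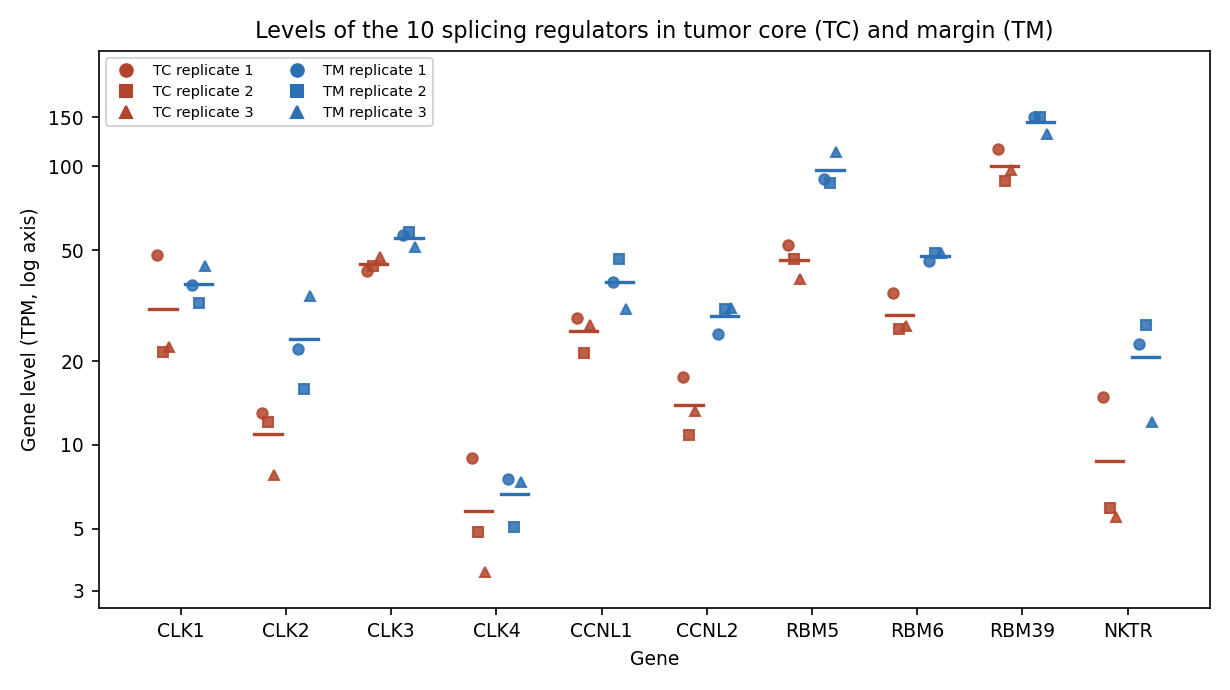
Level of each of the 10 genes in TPM (log axis) in the 3 core samples (red) and 3 margin samples (blue), with each horizontal line at the group mean. The core points lie below the margin points without overlap for 7 genes, and for CLK1 and CLK4 core replicate 1 is the highest of the 6 samples.

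The CLK kinases share a short alternative exon, exon 4, which lies before the part of the transcript that encodes the kinase domain. Skipping it shifts the reading frame, and the introns on either side of it are the ones known to be retained in CLK1. The exon is shown here for all 4 genes because it is the regulated element they have in common. The sequences are those of the reference genome (GRCh38, GENCODE release 29), with exon bases in capitals and 20 intron bases on each side in lower case for the genes whose flanking introns are annotated as retained. CLK1 exon 4 lies within chr2:200860105-200860235 (minus strand), CLK2 exon 4 at chr1:155268708-155268792 (minus strand), CLK3 exon 4 within chr15:74622100-74622236 (plus strand) and CLK4 exon 4 within chr5:178617324-178617454 (minus strand).
CLK1: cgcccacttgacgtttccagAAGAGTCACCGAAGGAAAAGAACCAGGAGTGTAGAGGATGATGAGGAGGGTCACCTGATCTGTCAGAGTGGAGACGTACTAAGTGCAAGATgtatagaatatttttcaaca
CLK4: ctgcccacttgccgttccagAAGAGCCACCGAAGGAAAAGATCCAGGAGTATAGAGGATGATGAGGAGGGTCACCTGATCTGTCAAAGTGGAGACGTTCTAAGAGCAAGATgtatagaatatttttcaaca
CLK3: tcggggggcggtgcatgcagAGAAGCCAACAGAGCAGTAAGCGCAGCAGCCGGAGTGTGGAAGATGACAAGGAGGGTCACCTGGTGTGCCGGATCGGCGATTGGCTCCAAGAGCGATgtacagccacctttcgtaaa
CLK2: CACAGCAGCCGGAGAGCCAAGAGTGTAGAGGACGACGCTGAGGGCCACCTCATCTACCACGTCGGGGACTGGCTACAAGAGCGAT

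The exon is 91 bases long in CLK1 and CLK4, 97 in CLK3 and 85 in CLK2, and each length leaves a remainder of 1 base on division by 3. CLK1 and CLK4 are the closest pair, with 85 of 91 exon bases identical and the first 20 bases of the following intron identical throughout. CLK1 and CLK3 shared 63 of 91 exon bases, and CLK1 and CLK2 shared 55 of 85. In CLK1 the introns before and after exon 4 are 1022 and 378 bases long, in CLK4 1121 and 395, and in CLK3 1894 and 277. All of these 6 introns lie wholly inside at least 1 annotated retained_intron transcript, and no intron of CLK2 does.

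CLK1 (ENSG00000013441, chr2:200853009-200864744, minus strand), the best studied of the kinases, measured 48.0, 21.6 and 22.5 TPM in the cores and 37.6, 32.3 and 44.0 TPM in the margins. The groups overlapped, because core replicate 1 was the highest of all 6 samples while the other two cores were below every margin. The means were 30.7 ± 15 TPM in TC and 37.96 ± 5.90 TPM in TM (SD, n = 3 each), a log2 difference of −0.38 (SE 0.30). The difference was −0.75 without core replicate 1 but −0.19 and −0.22 without core replicates 2 and 3, and on the rescaled values with all samples it was −0.21.

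CLK4 (ENSG00000113240, chr5:178602664-178630615, minus strand), its closest relative, was the lowest of the 10 genes at 8.98, 4.88 and 3.49 TPM in the cores and 7.52, 5.09 and 7.36 TPM in the margins. It repeated the arrangement of CLK1, with core replicate 1 the highest of the 6 samples. The log2 difference was −0.24 (SE 0.32), smaller than its standard error. It was −0.56 without core replicate 1 and 0.02 without core replicate 3, so its direction rests on single samples. Without margin replicates 1 and 2 in turn it was −0.15 and −0.40. The ratio of CLK1 to CLK4 within a sample was 5.35, 4.42 and 6.46 in the cores and 4.99, 6.34 and 5.98 in the margins, with overlapping groups, so the pair kept a like proportion while both varied.

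CLK3 (ENSG00000179335, chr15:74598500-74645414, plus strand) measured 42.2, 44.0 and 47.4 TPM in the cores and 56.8, 58.1 and 51.5 TPM in the margins. It was the steadiest of the kinases, with a coefficient of variation of 5.93% in TC and 6.32% in TM, and its groups did not overlap. The means were 44.5 ± 2.64 and 55.4 ± 3.50 TPM (SD, n = 3 each) and the log2 difference was −0.31 (SE 0.13), or −0.13 after rescaling. Its order among the cores was its own: core replicate 1 was the lowest, where the other 9 genes were highest in that sample.

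CLK2 (ENSG00000176444, chr1:155262868-155278491, minus strand), which also acts in insulin and feeding responses of the liver, measured 13.02, 12.1 and 7.82 TPM in the cores and 22.1, 15.9 and 34.2 TPM in the margins. Every core was below every margin, and the margins spread widely, from 15.9 in replicate 2 to 34.2 in replicate 3. The means were 11.0 ± 2.78 and 24.1 ± 9.30 TPM (SD, n = 3 each), a log2 difference of −1.03 (SE 0.30) and the largest of the 4 kinases. It was −0.75 without margin replicate 3. The gene overlaps HCN3, which is encoded on the opposite strand and was listed at 1.48 to 4.40 TPM. The processed pseudogene CLK2P1 was at no more than 0.20 TPM.

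The summed level of the 4 kinases was 112.2, 82.5 and 81.2 TPM in the cores and 124.0, 111.3 and 137.1 TPM in the margins. Core replicate 1 thus lay just above margin replicate 2. The kinase with the largest difference is the one without annotated retained introns, and the 3 with them had the smallest differences of the 10 genes.

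L cyclins are nuclear cyclins with RS domains that bind the CDK11 kinases, and they take part in both transcription and splicing. CCNL1 (ENSG00000163660, chr3:157146508-157160760, minus strand) measured 28.5, 21.3 and 27.0 TPM in the cores and 38.3, 46.3 and 30.7 TPM in the margins. The groups did not overlap, though core replicate 1 and margin replicate 3 lay close to each other. The means were 25.6 ± 3.78 and 38.5 ± 7.80 TPM (SD, n = 3 each), a log2 difference of −0.56 (SE 0.19).

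CCNL2 (ENSG00000221978, chr1:1385711-1399328, minus strand) measured 17.5, 10.9 and 13.3 TPM in the cores and 25.1, 30.6 and 31.0 TPM in the margins, a clear gap between the groups. The means were 13.9 ± 3.34 and 28.9 ± 3.33 TPM (SD, n = 3 each), a log2 difference of −1.03 (SE 0.20). The ratio of CCNL1 to CCNL2 was 1.63, 1.96 and 2.04 in the cores and 1.53, 1.51 and 0.991 in the margins. These ratios did not overlap, so within each margin CCNL2 made up a larger part of the L cyclin mRNA than within any core, and in margin replicate 3 the pair was level.

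A retained intron of CCNL1 and one of RBM5 are shown as examples, each found whole in 2 annotated retained_intron transcripts. They were picked for being short. Over the 10 genes the introns found whole in such transcripts were 78 to 2477 bases long. The first 6 and last 3 bases, which hold the splice site dinucleotides GT and AG, are in capitals. The CCNL1 intron is intron 7 of 10, 87 bases at chr3:157149978-157150064 (GRCh38, minus strand), with a GC content of 36.8%. The RBM5 intron is intron 23 of 24, 78 bases at chr3:50117172-50117249 (GRCh38, plus strand), with a GC content of 48.7%.
CCNL1 intron 7: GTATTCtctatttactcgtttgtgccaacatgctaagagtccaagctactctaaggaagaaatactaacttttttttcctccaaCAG
RBM5 intron 23: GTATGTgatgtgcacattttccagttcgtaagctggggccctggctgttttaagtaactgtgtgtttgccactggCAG

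In CCNL1, 6 of the 10 introns of the main coding transcript lie wholly inside an annotated retained_intron transcript. The number was 4 of 12 in CLK1 and in CLK4, 4 of 24 in RBM5, 3 of 16 in NKTR, 2 of 12 in CLK3 and 2 of 16 in RBM39. In CCNL2 and RBM6 no intron did, although both have transcripts of the class.

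RBM5 and RBM6 are neighbouring, related genes on chromosome 3 that encode RNA-binding splicing regulators, and RBM5 acts in early spliceosome assembly and in the choice of exons of apoptosis genes. RBM5 (ENSG00000003756, chr3:50088908-50119021, plus strand) measured 52.1, 46.4 and 39.4 TPM in the cores and 90.1, 87.1 and 112.7 TPM in the margins. The highest core was far below the lowest margin. The means were 46.0 ± 6.33 and 96.6 ± 14.0 TPM (SD, n = 3 each), a log2 difference of −1.06 (SE 0.16), or −0.88 after rescaling. Leaving out any single sample kept it between −1.15 and −0.94.

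RBM6 (ENSG00000004534, chr3:49940007-50100045, plus strand) measured 35.2, 26.0 and 26.7 TPM in the cores and 45.5, 48.8 and 48.8 TPM in the margins. The margins had a coefficient of variation of 3.94%, and no core reached them. The means were 29.3 ± 5.14 and 47.7 ± 1.88 TPM (SD, n = 3 each), a log2 difference of −0.70 (SE 0.16). The genes overlap on the same strand, since RBM6 is annotated to run past the start of RBM5, so reads in the shared stretch could have been assigned to either. The ratio of RBM5 to RBM6 was 1.48, 1.78 and 1.48 in the cores and 1.98, 1.79 and 2.31 in the margins, where core replicate 2 and margin replicate 2 nearly met. The antisense genes RBM5-AS1 and SEMA3F-AS1 were at 0.10 to 1.56 and 0.10 to 2.80 TPM.

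RBM39 (ENSG00000131051, chr20:35701347-35742312, minus strand), a U2AF-related splicing factor and transcriptional coactivator that aryl sulfonamide drugs mark for degradation, had the highest level of the 10 genes. It measured 115.5, 88.7 and 97.2 TPM in the cores and 150.7, 150.9 and 130.6 TPM in the margins, without overlap. The means were 100.5 ± 13.7 and 144.0 ± 11.7 TPM (SD, n = 3 each), a log2 difference of −0.52 (SE 0.14). The ratio of RBM39 to RBM5 was 2.22, 1.91 and 2.46 in the cores and 1.67, 1.73 and 1.16 in the margins, so RBM39 outweighed RBM5 by more in every core than in any margin. The 3 RBM genes summed to 202.8, 161.2 and 163.3 TPM in the cores and to 286.3, 286.8 and 292.0 TPM in the margins.

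NKTR (ENSG00000114857, chr3:42600614-42648741, plus strand) encodes a large cyclophilin with RS-rich stretches, first described on natural killer cells. It measured 14.8, 5.92 and 5.53 TPM in the cores and 23.0, 27.0 and 12.1 TPM in the margins. Core replicate 1 was above margin replicate 3, so the groups overlapped despite the largest mean difference of the 10 genes. The means were 8.75 ± 5.25 and 20.7 ± 7.69 TPM (SD, n = 3 each), a log2 difference of −1.21 (SE 0.40). The difference ran from −1.62 without core replicate 1 to −0.98 without core replicate 3. SEC22C overlaps NKTR on the opposite strand and was at 50.4 to 71.0 TPM.

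**Figure D2:**
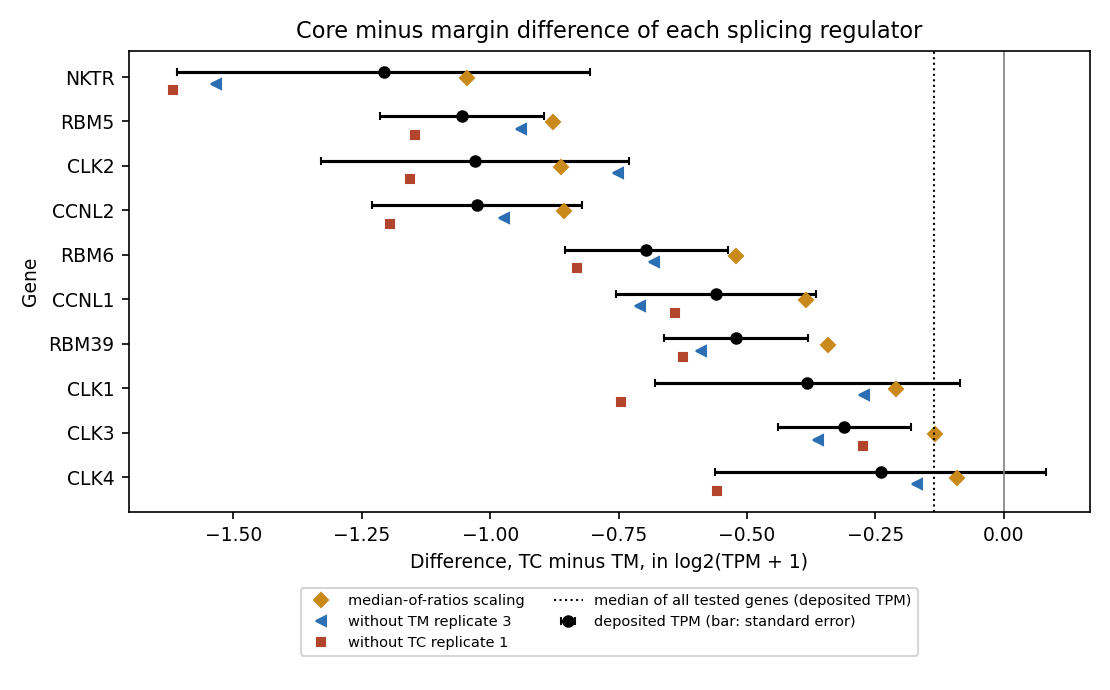
Difference between core and margin (TC minus TM, log2(TPM + 1)) for each gene with its standard error as a bar, and the same difference after median-of-ratios rescaling, without margin replicate 3 and without core replicate 1. NKTR, RBM5, CLK2 and CCNL2 lie near or below −1, while CLK1, CLK3 and CLK4 lie nearest to the all-gene median of −0.14 (dotted line).

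In the cores the order of mean levels, as TPM and so per length, was CLK4, NKTR, CLK2, CCNL2, CCNL1, RBM6, CLK1, CLK3, RBM5 and RBM39 from low to high. Of the neighbours in this order, only CCNL2 and CCNL1, and RBM5 and RBM39, did not overlap over the 3 samples. In the margins the order was the same except that CLK1 came before CCNL1 and RBM6. There CLK4 stood below NKTR, CCNL2 below CLK1, RBM6 below CLK3, CLK3 below RBM5 and RBM5 below RBM39 without overlap, and the other neighbours overlapped.

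The samples within a group were not alike. Core replicate 1 was the highest core for 9 of the 10 genes, which was so for 50.6% of the tested genes. The mean log2(TPM + 1) over the 10 genes was 4.90 in that core, against 4.39 and 4.36 in the other cores and 5.23 to 5.26 in the margins. Among the margins, replicate 3 was the highest for CLK1, CLK2, CCNL2 and RBM5 and the lowest for CLK3, CCNL1, RBM39 and NKTR, so that margin was not shifted one way over the set.

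**Figure D3:**
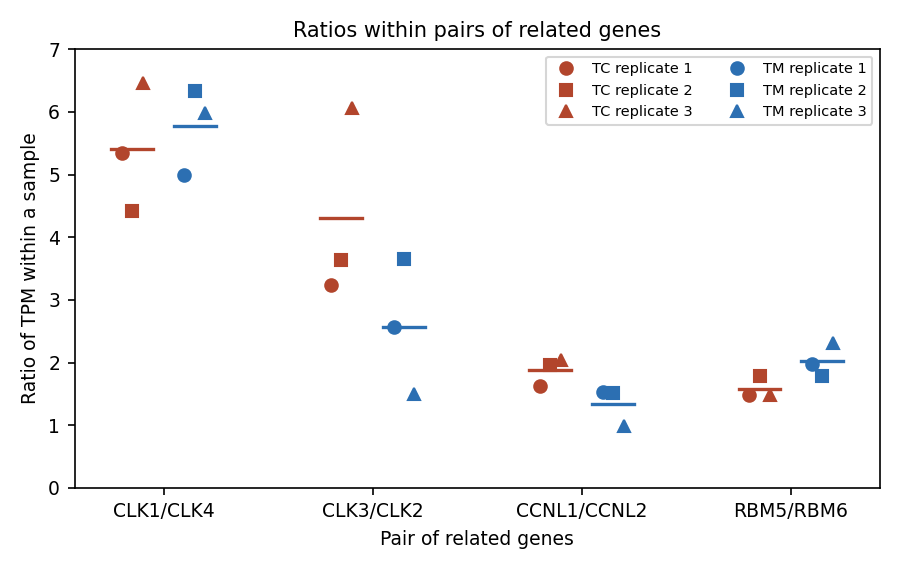
Ratio of the TPM of related genes within each sample, with cores in red, margins in blue and a horizontal line at each group mean. CCNL1/CCNL2 is lower and RBM5/RBM6 higher in every margin than in every core, whereas the points of CLK1/CLK4 and CLK3/CLK2 overlap.

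The promoters of these genes were searched for short elements in common. The RefSeq promoter table (GRCh38.p14, from 250 bases before to 50 after the start) held 11 windows for 9 of the genes, and RBM39 had no entry. The GC box, written GGGCGG and searched on both strands, was present in 8 of the 11 windows, against 45.0% of the 35116 promoters in the table. The windows are not independent, because CLK1 and CLK3 each have a pair of them. The pair of CLK1 overlaps and holds the same GC boxes, so these are counted again, while in CLK3 only the later window has the box. The CCAAT box was in 5 of 11 against 34.6%, TATAAA in none against 11.5%, CCGGAAG in 2 against 10.3% and CACGTG in 2 against 7.26%, both strands counted each time. TGACGTCA, the full cAMP response element, was in the window of CCNL1 alone, against 1.85% of all promoters. AAGATGG was in none, against 5.84%. The GC content of the windows ran from 53.3% to 77.3%, with a median of 58.7% over the table.

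The windows of CCNL2 and RBM5 are printed as examples, with 4 matches to the GC box in CCNL2 and none in RBM5. A relation between the GC box and the differences was not tested. Matches on either strand are in capitals, and the middle pair in CCNL2 overlap. The windows are chr1:1399286-1399585 (minus strand, 73.7% GC) and chr3:50088669-50088968 (plus strand, 53.3% GC).
CCNL2: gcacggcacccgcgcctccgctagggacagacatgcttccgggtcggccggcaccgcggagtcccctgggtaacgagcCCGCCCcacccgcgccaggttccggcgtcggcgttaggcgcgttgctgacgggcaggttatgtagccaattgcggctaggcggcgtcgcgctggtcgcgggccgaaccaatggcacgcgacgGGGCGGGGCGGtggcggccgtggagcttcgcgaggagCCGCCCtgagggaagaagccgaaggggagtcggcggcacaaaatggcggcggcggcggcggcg
RBM5: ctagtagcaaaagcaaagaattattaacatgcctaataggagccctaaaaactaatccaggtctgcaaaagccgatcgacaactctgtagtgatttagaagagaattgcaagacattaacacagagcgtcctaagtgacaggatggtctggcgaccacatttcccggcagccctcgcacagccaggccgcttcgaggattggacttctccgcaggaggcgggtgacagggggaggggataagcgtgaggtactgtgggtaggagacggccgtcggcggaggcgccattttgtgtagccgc

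The genes around the 10 in their pathways were tested one by one with limma on log2(TPM + 1), adjusted over all 13861 tested genes. At an adjusted p under 0.05 the test called 0.137% of all tested genes, or 0.13% counting those lower in the core alone, and it called none of the related genes described below. At an unadjusted p under 0.05, 14.2% of all tested genes were lower and 1.93% higher in the core. After median-of-ratios rescaling the shares were 7.65% lower and 5.76% higher, so the count of each list is given on both scales. Each list is read beside these shares and the all-gene median of −0.14. All of the lists were drawn up with earlier results of these data known.

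Of the 16 partner kinases of the L cyclins and other transcription-linked CDKs and cyclins, 3 were lower and none higher at an unadjusted p under 0.05, and the median difference was −0.28. After rescaling 1 was lower (CDK11A) and 1 higher (MNAT1), with a median of −0.12. CDK11A, a direct partner of the L cyclins, was at 6.51, 4.63 and 4.86 TPM in the cores and 9.80, 14.0 and 19.3 TPM in the margins. Its difference was −1.24 (SE 0.27, limma adjusted p = 0.0883), whereas that of its near-identical copy CDK11B, named here after its value was seen, was −0.37 (limma adjusted p = 0.313). The copies share reads, so the division between them is uncertain. CDK12, which phosphorylates RNA polymerase II, had a difference of −0.62 (limma adjusted p = 0.282), and CDK10 one of −0.78 (limma adjusted p = 0.148).

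Of 13 SR protein kinases and their DYRK and HIPK relatives in the matrix, 11 were tested, and 1 was lower and none higher at an unadjusted p under 0.05. This was DYRK1A, a kinase of nuclear speckles, at −0.60 (limma adjusted p = 0.206). DYRK2 was at −0.40 (limma adjusted p = 0.511) and DYRK4 at 0.30 (limma adjusted p = 0.327). SRPK1 and SRPK2, which phosphorylate SR proteins in the cytoplasm and were looked up after the data were seen, were at −0.13 and −0.16 (limma adjusted p = 0.812 and 0.794). After rescaling none was lower and 1 was higher at that threshold, DYRK4. The list had a median of −0.20 with the deposited TPM and −0.03 after rescaling. Without core replicate 3 or margin replicate 1 it was −0.0093 or −0.03.

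SR proteins and other RS-domain proteins, the substrates of the CLKs, had a median of −0.35 over 26 tested genes, of which 10 were lower and none higher at an unadjusted p under 0.05. ACIN1, an RS-domain protein of the exon junction that also takes part in chromatin condensation, was at 89.3, 78.7 and 79.3 TPM in the cores and 148.4, 149.6 and 142.4 TPM in the margins. Its difference was −0.83 (SE 0.12, limma adjusted p = 0.0529), just short of the threshold. CLASRP, which is known as an RS protein that interacts with CLK4, had a difference of −0.84 (limma adjusted p = 0.0843), and SRRM1, a splicing coactivator, one of −0.75 (limma adjusted p = 0.0813). After rescaling 4 of the 26 were lower and none higher, namely ACIN1, SRRM1, CLASRP and RSRP1, and the median of the list was −0.18.

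Among 35 tested genes of the wider RBM family, 5 were lower and 1 higher at an unadjusted p under 0.05, with a median of −0.18 that became −0.01 after rescaling. On the rescaled values 2 were lower (RBM33 and RBM38) and 2 higher (RBM3 and RBM7). RBM33 was at −0.73 (limma adjusted p = 0.124), RBM38 at −0.57 (limma adjusted p = 0.194) and RBM22, a core component of the active spliceosome, at −0.45 (limma adjusted p = 0.183). The higher gene was RBM3, known for its induction by cold, at 339.0, 283.3 and 312.0 TPM in the cores and 241.1, 266.5 and 176.8 TPM in the margins. Its difference was 0.46 (SE 0.17, limma adjusted p = 0.229). RBM10, the closest relative of RBM5, was at −0.32 (limma adjusted p = 0.386), and RBM23, the closest relative of RBM39, at −0.24 (limma adjusted p = 0.374). RBM3, RBM10 and RBM23 were picked out after their values were seen.

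The other cyclophilins, relatives of NKTR by their isomerase domain, had a median of −0.01 over 15 tested genes, of which 1 was lower and none higher at an unadjusted p under 0.05. That gene was PPIL2, at −0.63 (limma adjusted p = 0.151), and after rescaling it was again the 1 gene lower. PPWD1 and PPIF were at −0.40 and −0.51 (limma adjusted p = 0.453 and 0.592).

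Core and minor spliceosome proteins, which carry out the splicing reaction itself, had a median of −0.10 over 48 tested genes. At an unadjusted p under 0.05, 8 were lower and 2 higher, a balance that turned to 3 lower and 6 higher after rescaling. The list median lay above the all-gene median on both scales, but below it after quantile normalization, without a filter on low values and without core replicate 3 or margin replicate 3. The lower ones included those lower on both scales, U2AF2 at −0.58 (limma adjusted p = 0.0921), SNRNP200 at −0.54 (limma adjusted p = 0.0843) and PRPF3 at −0.68 (limma adjusted p = 0.126). The higher ones, chosen for naming after their values were seen, were LSM5 at 0.80 and SNRPD1 at 0.77 (limma adjusted p = 0.158 and 0.175).

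Factors of nonsense-mediated decay and of the exon junction complex had a median of −0.30 over 17 tested genes, with 5 lower and none higher at an unadjusted p under 0.05. After rescaling the median was −0.12, and 2 were lower, SMG5 and CASC3. SMG5 was at 35.1, 31.7 and 32.0 TPM in the cores and 54.3, 53.7 and 53.7 TPM in the margins. Both groups were tight, and the difference was −0.69 (SE 0.13, limma adjusted p = 0.0813). UPF1, the central helicase of the pathway, was at −0.50 (limma adjusted p = 0.205), and CASC3 at −0.49 (limma adjusted p = 0.178).

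Of the 8 lists up to this point, the one with the lowest median was that of other genes known for regulated retained introns. It had a median of −0.44 over 20 tested genes, of which 19 had a lower mean in the core, against 67.0% of all tested genes. At an unadjusted p under 0.05, 8 were lower. This list too was drawn up with earlier results of these data known, so its rank is a description. Its SR protein genes SRSF5, SRSF7, TRA2A, TRA2B and SON also stand in the list of RS-domain proteins. OGT, the O-GlcNAc transferase, was at 25.9, 13.9 and 11.2 TPM in the cores and 46.3, 37.8 and 43.5 TPM in the margins, with a difference of −1.35 (SE 0.28, limma adjusted p = 0.0843).

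MAT2A, which makes S-adenosylmethionine, was at 77.8, 50.2 and 42.3 TPM in the cores and 130.8, 100.4 and 118.9 TPM in the margins, a difference of −1.07 (SE 0.22, limma adjusted p = 0.0843). HNRNPH1, a regulator of exon choice, was at 361.3, 232.9 and 212.9 TPM in the cores and 567.7, 794.1 and 506.0 TPM in the margins, a difference of −1.22 (SE 0.24, limma adjusted p = 0.0843). In all 3 of these genes core replicate 1 was the highest core and lay below every margin. After rescaling the median of the list was −0.26, against 0.02 for all tested genes, with 4 lower (OGT, OGA, MAT2A and HNRNPH1) and 1 higher (TAF1D) at an unadjusted p under 0.05.

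**Figure D4:**
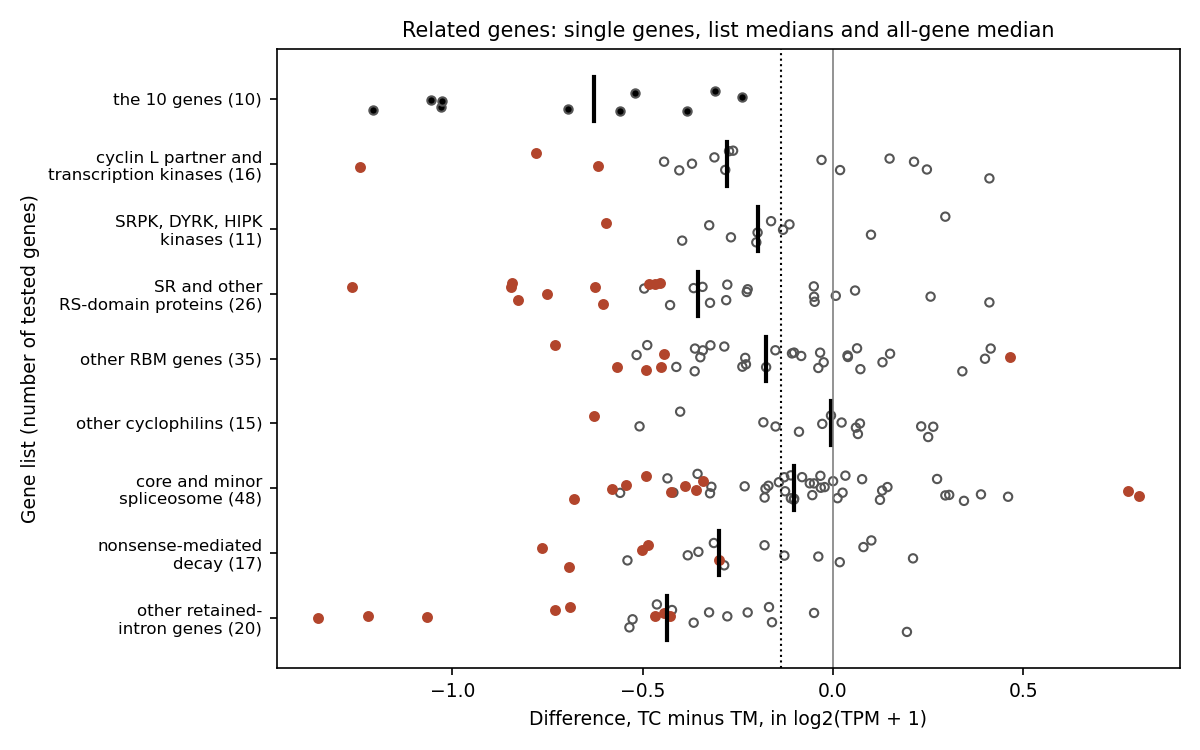
Difference between core and margin of each tested gene (points) in the 10 genes and in 8 lists of related genes, with a vertical bar at each list's median and a dotted line at the all-gene median of −0.14. In the 8 lists, filled red points had an unadjusted limma p under 0.05. The 10 genes are all drawn in black and are not marked by p. The list medians run from −0.44 for other retained-intron genes to −0.01 for other cyclophilins, and the 10 genes, which were chosen for this contrast, have a median of −0.63.

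Long RNAs that stay in the nucleus were read beside the 10 genes because transcripts with retained introns stay there too. MALAT1, an RNA of nuclear speckles, was at 7.54, 5.90 and 4.21 TPM in the cores and 23.8, 27.4 and 89.7 TPM in the margins, a difference of −2.57 (SE 0.46, limma adjusted p = 0.0813). NEAT1, the scaffold of paraspeckles, was at 30.0, 18.8 and 22.3 TPM in the cores and 46.9, 56.7 and 55.1 TPM in the margins, a difference of −1.15 (SE 0.19, limma adjusted p = 0.0658). TUG1 was at −0.39 (limma adjusted p = 0.478). Of 4 such RNAs listed 3 were tested, and their median of −1.15 was lower than that of any of the 8 lists above. At an unadjusted p under 0.05, 2 were lower and none higher. After rescaling the median was −0.97, and again 2 were lower and none higher. The part of nuclear RNA recovery in the differences of the 10 genes was not tested.

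The genes whose levels followed the mean of the 10 most closely over the 6 samples were PLEKHH2, RAPGEF1, CELSR1, ZZEF1 and SLC9A3, with Pearson's r of 0.998, 0.996, 0.995, 0.995 and 0.994. Likeness to this degree was common, as 707 of the 13851 other tested genes had an r of at least 0.9, and the points share the contrast between core and margin. PLEKHH2 and SLC9A3 were at 0.51 to 1.41 TPM throughout. RAPGEF1, which activates the small GTPase Rap1, had a mean of 13.1 TPM in the cores and 17.4 TPM in the margins.

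Other measures of the samples moved with the contrast. Mitochondrially encoded genes held 8.82%, 6.08% and 6.30% of the TPM in the cores and 9.23%, 10.5% and 11.1% in the margins, and core replicate 1 was nearest to the margins here too. Cytosolic ribosomal protein genes held 24.4% to 26.8% in the cores and 19.8% to 23.9% in the margins. The number of genes above 0 TPM was 21942, 21417 and 21063 in the cores and 22848, 22678 and 23216 in the margins. For all 3 measures the exact two-sided permutation test gave p = 0.1, the smallest that 3 against 3 samples allow. The part of these measures in the differences was not tested beyond the rescaling, and with TPM recomputed without mitochondrially encoded genes the median over the 10 genes was −0.68.

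Of 20 skeletal muscle markers 19 were found, all with a higher mean in the margin, and their sum was 4.47 to 8.97 TPM in the cores and 206.6, 564.3 and 4.44 TPM in the margins. Margin replicates 1 and 2 were thus far above the cores and margin replicate 3 was not. Set against margin replicate 3 alone, all 10 genes were lower in the core, with a median of −0.58. This choice of samples was made after the data were seen. The differences were then −1.58 for CLK2, −1.28 for RBM5, −1.13 for CCNL2, −0.73 for RBM6, −0.60 for CLK1 and −0.38 for CLK4, each farther from 0 than with all margins. They were nearer to 0, at −0.55 for NKTR, −0.38 for RBM39, −0.27 for CCNL1 and −0.21 for CLK3.

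Fibroblast markers, of which 10 of 12 were higher in the margin, summed to 70.0 to 232.7 TPM in the cores and 97.5 to 1030 TPM in the margins. Endothelial markers summed to 5.22 to 5.92 TPM in the cores and 4.97 to 9.49 TPM in the margins with EMCN at 0, and macrophage markers to 96.4 to 110.2 and 103.1 to 113.5 TPM with TYROBP at 0. Adipocyte markers summed to 16.2 to 29.1 and 16.2 to 30.3 TPM with ADIPOQ and LEP at 0. Markers of MDA-MB-231 cells, led by VIM, summed to 5824 to 6573 and 5407 to 6875 TPM, while 3 of 5 genes listed as low in these cells, ESR1, PGR and CDH1, stayed at or below 0.36 TPM. The other two of that list were measured, with EPCAM at 3.66 to 6.02 TPM and ERBB2 at 22.3 to 24.1 TPM in the cores and 30.8 to 40.7 TPM in the margins. The part of host cells in the values was not tested, and no step that separates mouse from human reads is stated.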

How the data were processed

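RNA libraries were made with a TruSeq RNA kit from 3 tumor core and 3 tumor margin samples and sequenced as paired ends. Per the labels and the study's methods, the authors aligned reads with HISAT2 (build hg38 in the submitters' processing notes), assembled them with StringTie and quantified genes with RSEM, and deposited a matrix of gene TPM. Versions of these tools and a strand setting for counting are not given in the sources used here. The matrix holds 60930 features, of which 60671 are annotated genes and 259 are assembled loci, which were left out. Columns sum to 1000000 TPM except margin replicate 3 (994381). Read depth is unknown, so no counting interval is given.

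Genes at 1 TPM or more in at least 3 samples (13861) were compared as log2(TPM + 1) with limma 3.58.1 (R 4.3.3), with an empirical Bayes trend, two-sided, adjusted by Benjamini-Hochberg and called at an adjusted p under 0.05. The pseudocount makes differences of low genes smaller than those of TPM itself. The study's count model was not run because TPM are not counts. Samples were grouped by their labels, without pairing. The fit was tested on simulated data.

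The 10 genes and all lists were chosen with earlier results of these data known. Named were the 10 genes, in each related list the called genes or else the 3 with the largest absolute statistic, and the 5 genes most correlated with the mean of the 10. Symbols were matched for 60647 genes, and transcript classes came from GENCODE release 29. Alternatives were another pseudocount, other filters, quantile and median-of-ratios scaling, removal of mitochondrially encoded genes, other empirical Bayes settings, a replicate block and each sample left out.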

Additional observations from a re-analysis of the deposited data

How the results depend on the processing

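The genes called, 19 with the settings used, were 7 with a pseudocount of 0.1, 1 without a filter on low values, 4 after quantile normalization, 6 with median-of-ratios factors, 12 without the empirical Bayes trend and 47 with robust empirical Bayes, and 1 to 17 when each sample was left out in turn. Of the genes at an unadjusted p under 0.05, 88.0% were lower in the core, against 57.0% with median-of-ratios factors and 60.4% after quantile normalization. Correlations of the deviations of same-numbered cores and margins were 0.21, −0.12 and −0.17. Those of differently numbered samples ran from −0.23 to 0.32. With 3 samples per group these values cannot decide whether the replicate numbers pair the samples. With a replicate block 1 gene was called, and the differences of the 10 genes were the same by construction. The median of the 10 genes ran from −0.79 to −0.53 over the samples left out, and CLK4, at −0.56 to 0.017 over the samples left out and 0.017 without core replicate 3, was the sole change of sign among the 10. The median of the cyclin partners was −0.10 after quantile normalization, −0.12 with median-of-ratios factors and −0.42 (without margin replicate 3) to −0.19 over the samples left out. That of the RS-domain proteins was −0.18 with median-of-ratios factors and −0.58 (without margin replicate 3) to −0.25 over the samples left out. The wider RBM family came to −0.022 after quantile normalization, −0.013 with median-of-ratios factors and −0.27 to −0.10 over the samples left out. Decay factors came to −0.12 with both scalings and −0.37 to −0.19 (without margin replicate 1) over the samples left out. Over the samples left out the SR protein kinases ran from −0.29 (without core replicate 1) to −0.0093 (without core replicate 3), the core spliceosome from −0.23 (without margin replicate 3) to −0.07 and other retained-intron genes from −0.59 to −0.32. Signs turned for the SR protein kinases after quantile normalization (0.0047), for the core spliceosome with median-of-ratios factors (0.072), and for the cyclophilins without a filter (0.0070), after quantile normalization (0.024), with median-of-ratios factors (0.17) and without margin replicate 1 (0.018, range over the samples left out −0.070 to 0.018). The mitochondrial share differed by −4.08 to −2.71 percentage points over the samples left out. Scaling factors shift all genes at once, and the cause of the other changes was not tested.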

Other observations

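The number of annotated retained_intron transcripts was compared with the difference between core and margin over the tested protein-coding genes outside the 10. Over 4935 genes with none the median difference was −0.09, and 62.1% were lower in the core. Over 4648 genes with 1 to 3 it was −0.13 with 67.4% lower, over 1813 genes with 4 to 7 it was −0.24 with 78.7% lower, and over 494 genes with 8 or more it was −0.37 with 87.2% lower. After median-of-ratios rescaling the medians were 0.07, 0.04, −0.07 and −0.20. Genes with more such transcripts also had a higher level (median 10.5, 15.3, 25.0 and 33.99 TPM) and more transcripts in all (median 4, 9, 14 and 22), and the parts of these properties were not told apart. This comparison was made after the values of the 10 genes were known, genes are not replicates, and it is a description without a test.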
